A study of Mus musculus with 2 samples.

Results

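The small leucine-rich proteoglycans (SLRPs) described here are Dcn (decorin), Bgn (biglycan), Aspn (asporin), Lum (lumican), Fmod (fibromodulin), Prelp, Omd (osteomodulin) and Ogn (osteoglycin). These 8 genes were taken by symbol from 34400 genes in 2 tables of single-cell UMI counts, and all 8 were present in both tables. One library came from CT26 tumours of mice given SLC7A11-Ab, an antibody against the cystine transporter SLC7A11, and the other from CT26 tumours of Control mice given anti-IgG. Both agents were dosed at 10 mg/kg every 2 days once tumours measured 50 to 100 mm³. CT26 is an established mouse colon carcinoma line, so the tumour cells of both libraries derive from 1 cultured line grown in host mice. The design text names the caecal junction as the injection site and also refers to subcutaneous growth, so the site is not certain. Age, strain and the number of animals behind each library are not stated in the labels. The labels call the cells goblet cells, but 6 goblet cell markers (Muc2, Tff3, Fcgbp, Spdef, Clca1 and Agr2) together gave 80 UMIs in all kept SLC7A11-Ab cells and 69 in all kept Control cells.

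SLRPs are secreted proteins built on a core of leucine-rich repeats, most of them carrying a chondroitin, dermatan or keratan sulfate chain. They coat collagen fibrils, set fibril spacing and width, and hold growth factors such as TGF-beta in the matrix. In most tissues fibroblasts and related mesenchymal cells are their main source. Biglycan and decorin released from the matrix can also bind Toll-like receptors on macrophages.

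The 8 genes lie in 4 places in the mouse genome (GENCODE vM21 annotation of GRCm38, the assembly also called mm10). Dcn (chr10:97479609-97518143) and Lum (chr10:97565128-97572703) are neighbours on the plus strand, 47.0 kb apart. Aspn (chr13:49544443-49567565), Omd (chr13:49582462-49592822) and Ogn (chr13:49608046-49624501) follow each other on the plus strand with gaps of 14.9 and 15.2 kb. Prelp (chr1:133910304-133921414, minus strand) and Fmod (chr1:134037254-134048277, plus strand) are 116 kb apart, and Bgn (chrX:73483602-73495933) stands alone. Cenpp, a centromere protein gene on the minus strand, spans the whole Aspn, Omd and Ogn stretch and overlaps exons of Aspn. An antisense gene overlaps Prelp. Whether counting used strand is not given in the sources used here, so Aspn reads and Cenpp reads in the shared exons, and likewise reads of Prelp and its antisense gene, may not have been told apart.

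RefSeq windows before the transcription start (GRCm38.p6) were found for 6 of the 8 genes, Dcn and Lum not among them. The windows of Aspn, Omd and Ogn are shown because these neighbours varied together in the tumour cells, and that of Bgn, which lies apart from the others, is set beside them. Prelp, on chr1, varied with these genes too, but its window and that of Fmod are not printed. Each is the 250 bases before the start, 5′ to 3′ on the gene's strand, with matches on either strand in capitals. The motifs searched were the TATA box letters TATAAA, the CAAT box letters CCAAT, the GC box letters GGGCGG and the AP-1 site letters TGANTCA.
Aspn, chr13:49544193-49544442, plus strand: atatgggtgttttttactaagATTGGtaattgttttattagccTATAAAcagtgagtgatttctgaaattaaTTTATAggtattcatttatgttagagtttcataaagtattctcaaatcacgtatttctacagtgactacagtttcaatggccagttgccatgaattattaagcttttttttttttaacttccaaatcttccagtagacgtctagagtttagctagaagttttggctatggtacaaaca
Omd, chr13:49582212-49582461, plus strand: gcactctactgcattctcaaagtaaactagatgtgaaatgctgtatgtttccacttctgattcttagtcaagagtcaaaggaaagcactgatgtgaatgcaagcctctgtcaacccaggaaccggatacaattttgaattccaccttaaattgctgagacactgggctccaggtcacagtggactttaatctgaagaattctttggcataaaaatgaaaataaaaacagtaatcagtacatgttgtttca
Ogn, chr13:49607765-49608014, plus strand: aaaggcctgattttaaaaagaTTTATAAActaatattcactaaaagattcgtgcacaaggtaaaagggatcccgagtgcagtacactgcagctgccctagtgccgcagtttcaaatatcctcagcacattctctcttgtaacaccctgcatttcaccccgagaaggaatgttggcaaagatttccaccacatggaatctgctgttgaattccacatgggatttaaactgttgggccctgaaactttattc
Bgn, chrX:73483351-73483600, plus strand: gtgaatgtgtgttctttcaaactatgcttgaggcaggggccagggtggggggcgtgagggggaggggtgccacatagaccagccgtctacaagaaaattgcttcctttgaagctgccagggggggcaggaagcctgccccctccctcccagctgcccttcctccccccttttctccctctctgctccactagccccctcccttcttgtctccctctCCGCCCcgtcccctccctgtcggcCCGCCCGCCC
The 3 chr13 windows were AT-rich, with G and C making up 30.0% of the Aspn, 38.4% of the Omd and 42.0% of the Ogn window, against 64.4% of the Bgn window and a median of 52.4% over all 32851 windows. The windows of Prelp, at 55.6%, and Fmod, at 51.2%, lay near that median. TATAAA occurred in the Aspn and Ogn windows and in 12.4% of all windows; in Ogn a match on each strand overlaps the other. The Bgn window held 3 matches to GGGCGG, all on the other strand, against at least 1 in 32.7% of all windows. CCAAT was present in 33.8% of all windows and TGANTCA in 6.75%. No match to any of the 4 motifs was found in the Omd window, which says only that these letters are not in these 250 bases.

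The SLC7A11-Ab library held 12153 barcodes with 143658800 UMIs and the Control library 13910 barcodes with 129044329 UMIs, of which 10897 and 12326 cells were kept. The libraries shared 39 barcodes. Cells were classed by gates on a few genes, in CPM, the UMIs of a gene per 1000000 UMIs of the cell or, for a class, of all its cells. Host fibroblasts had Col1a1 and Col3a1 each at 1000 CPM or more, which gave 181 cells in SLC7A11-Ab and 113 in Control. Tumour cells passed no gate of another cell type, had at least 5000 UMIs and held no UMI of 4 Y-linked genes, which gave 3277 cells with a median of 17350.0 UMIs in SLC7A11-Ab and 6512 cells with a median of 11186 UMIs in Control. Y-linked UMIs reached 99.6 CPM in SLC7A11-Ab fibroblasts and 113 CPM in Control fibroblasts, against 105 CPM in the macrophages of each library. Of 6 epithelial markers, Krt20 averaged 126 CPM and Krt18 34.5 CPM in SLC7A11-Ab tumour cells, with 161 and 44.3 CPM in Control tumour cells. The others were low or nearly absent. Krt8 was at 2.26 CPM in SLC7A11-Ab and 2.53 CPM in Control tumour cells. Cdh1 gave 8 and 14 UMIs in all, Krt19 0 and 3 UMIs, and Epcam 1 and 2 UMIs.

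One gate did not hold what its name says. The monocyte gate used Plac8, which tumour cells also express, and 74.1% of the 2879 SLC7A11-Ab cells and 89.2% of the 1231 Control cells it took had neither a Ptprc (CD45) nor a Y-linked UMI. The cells with neither UMI were rich in Dcn, at 2275 CPM in SLC7A11-Ab and 4380.0 CPM in Control. Gates without Plac8, chosen after seeing the data, gave a wider tumour class of 5205 SLC7A11-Ab and 7164 Control cells. Tumour values are those of the fixed gates unless the wider class is named. There was 1 library per group, so no difference between libraries has a replicate check and no test was made. All 95% intervals (exact Poisson for levels, Clopper-Pearson for shares, conditional binomial for ratios) cover counting error only.

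Dcn was the SLRP found in nearly every tumour cell as well as in fibroblasts. Decorin binds fibrillar collagen and TGF-beta. It stood at 793 CPM in SLC7A11-Ab tumour cells and 945 CPM in Control tumour cells, and at 3788 and 3611 CPM in the fibroblasts of the same libraries. Tumour cells were thus lower than fibroblasts by a log2 ratio of -2.26 (-2.29 to -2.22) in SLC7A11-Ab and -1.93 (-1.99 to -1.88) in Control. Tumour cells held 35.2% of Dcn UMIs of kept SLC7A11-Ab cells and 54.4% of those of Control cells, against 5.01% and 2.05% in fibroblasts. The Plac8-based gate held a further 49.6% and 22.7%, and the wider tumour class held 78.3% and 68.3% in all. Of the UMIs of all genes, tumour cells held 53.6% in SLC7A11-Ab and 78.8% in Control, and the wider class 78.8% and 84.3%. Cells that passed no gate and were not taken as tumour cells held 6.35% and 19.2% of Dcn UMIs. These cells held 5.45% and 7.96% of the UMIs of all genes.

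Some Dcn signal appeared in cells that should not make it. T cells, gated on Cd3 genes, had Dcn at 133 CPM in SLC7A11-Ab and 248 CPM in Control, the level used here for comparison. Free RNA as its source was not tested. T cells were also shallower than tumour cells, so their CPM need not equal the background of tumour cells. The Control value rests on 59 UMIs, 83.1% of them in 5 cells. A Dcn UMI was present in 93.0% of SLC7A11-Ab tumour cells (92.1% to 93.9%) and 92.8% of Control tumour cells (92.1% to 93.4%), against 22.7% and 12.0% of T cells, whose median depths were 2133 and 1273 UMIs. After each cell was thinned to 1000 UMIs, the share was 39.9% of SLC7A11-Ab and 46.2% of Control tumour cells, and 11.9% and 4.94% of T cells, with 75 and 44 T cells left out as shallower. At 5000 UMIs, which no tumour cell fell under, the tumour shares were 76.2% and 82.3%. Tumour cells held Dcn above the T cell level by a log2 ratio of 2.57 (2.37 to 2.78) in SLC7A11-Ab and 1.92 (1.56 to 2.32) in Control.

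Dcn was unevenly spread over tumour cells. The median tumour cell had 404 CPM in SLC7A11-Ab and 564 CPM in Control, the 90th percentile 2247 and 2337 CPM, and the 99th percentile 12003 and 11371 CPM. The top 10% of cells held 45.6% of the Dcn UMIs of SLC7A11-Ab tumour cells and 42.8% of those of Control tumour cells. At 5000 UMIs per cell the variance of Dcn counts was 23.0 times the mean in SLC7A11-Ab and 19.2 times in Control, where independent draws at 1 common level would give a ratio near 1. Tumour cells at 1000 CPM or more made up 23.5% in SLC7A11-Ab and 30.4% in Control, and this order turned in the wider class, with 35.4% and 34.3%. Cells between 800 and 1200 CPM, near that limit, numbered 317 in SLC7A11-Ab and 855 in Control. Depth moved with Dcn. Cells with at least 5000 CPM had a median of 7713 UMIs in SLC7A11-Ab and 6623 UMIs in Control, against 17220.0 and 11425 UMIs in cells under 200 CPM, and the part of depth in these values was not tested.

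**Figure D1:**
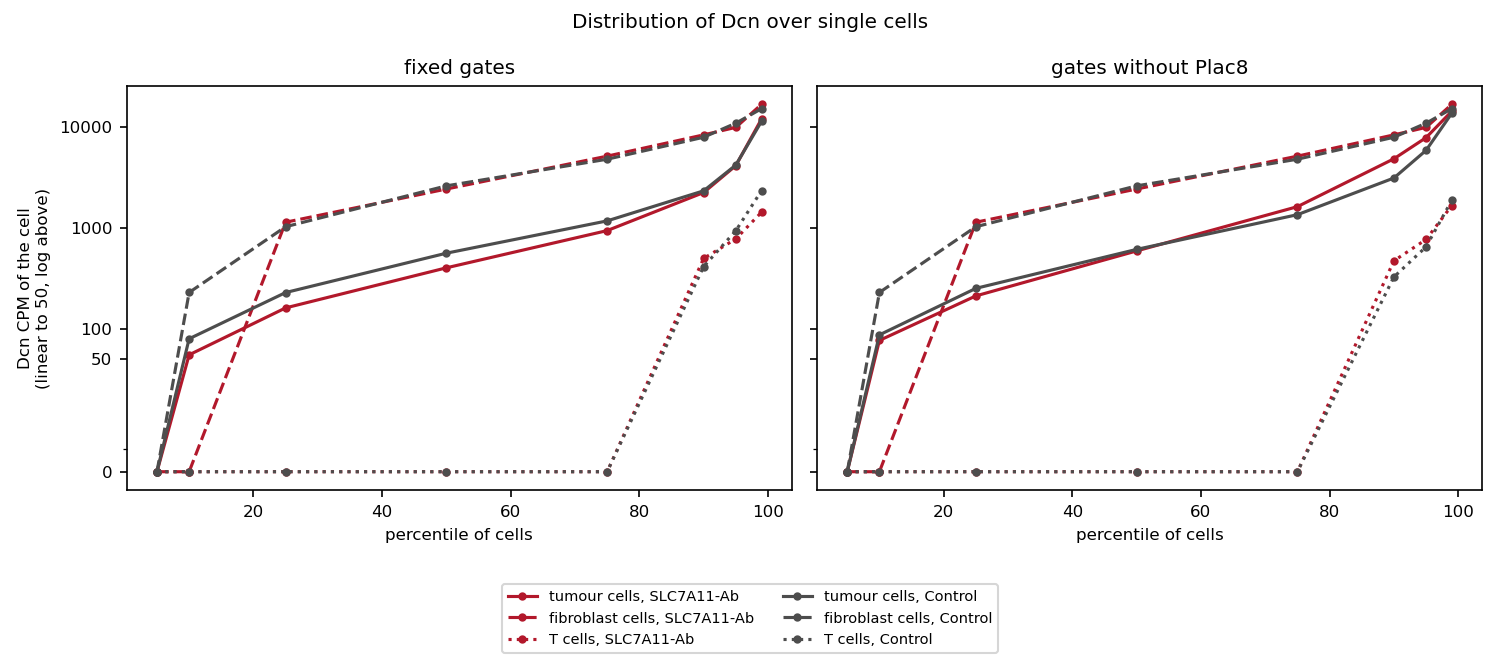
Dcn CPM per cell (vertical axis, linear to 50 and logarithmic above) at the 5th to 99th percentile of cells (horizontal axis) for tumour cells, fibroblasts and T cells of each library, with the fixed gates on the left and the gates without Plac8 on the right. The median tumour cell sits at 404 CPM in SLC7A11-Ab and 564 CPM in Control with the fixed gates, between fibroblasts (2435 and 2617 CPM) and T cells (0 in both). Cells were not thinned. Median depths were 17350.0 and 11186 UMIs in tumour cells and 2133 and 1273 UMIs in T cells, and the part of depth was not tested.

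Bgn, the closest relative of decorin, was by contrast a fibroblast gene here. Its level was 5.67 CPM in SLC7A11-Ab tumour cells and 5.36 CPM in Control tumour cells, and 1028 and 1524 CPM in the fibroblasts of the same libraries. The log2 ratio of tumour cells to fibroblasts was -7.50 (-7.67 to -7.34) in SLC7A11-Ab and -8.15 (-8.31 to -7.99) in Control. T cells had 4.06 CPM, from 6 UMIs, in SLC7A11-Ab and 0 UMIs in Control, and in neither library did the tumour level differ from the T cell level beyond counting error. Fibroblasts were 1.60% of the UMIs of kept SLC7A11-Ab cells and 0.779% of those of Control cells, yet held 65.6% and 58.1% of the Bgn UMIs. For every 1000 Dcn UMIs there were 7.15 Bgn UMIs in SLC7A11-Ab tumour cells and 5.67 in Control tumour cells, but 271 and 422 in fibroblasts. Col1a1, used in the gate itself, split in the same way, with 71.4 and 44.2 UMIs per 1000 Dcn UMIs in tumour cells and 2659 and 2041 in fibroblasts.

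Lum, a keratan sulfate SLRP of corneal and skin collagen, also had its highest level in fibroblasts. It stood at 3.85 CPM in SLC7A11-Ab and 14.0 CPM in Control tumour cells, and at 534 and 407 CPM in fibroblasts. Tumour cells held 11.1% of the Lum UMIs of kept SLC7A11-Ab cells and 31.8% of those of Control cells, and fibroblasts held 45.8% and 9.16%. The Plac8-based gate held a further 34.6% and 29.5%, and the wider tumour class held 42.2% and 45.9%. Of the UMIs of all genes, tumour cells held 53.6% and 78.8%, and the wider class 78.8% and 84.3%. Cells that passed no gate and were not taken as tumour cells held 4.52% and 27.6% of the Lum UMIs. Prelp, a basic SLRP that anchors basement membrane to collagen, had 4.38 CPM in SLC7A11-Ab and 2.93 CPM in Control tumour cells, and 139.7 and 98.1 CPM in fibroblasts. Its tumour level did not differ from that of T cells beyond counting error in either library.

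Aspn, an aspartate-rich relative of decorin that can bind TGF-beta, was at 14.0 CPM in SLC7A11-Ab and 12.0 CPM in Control tumour cells and at 165 and 164 CPM in fibroblasts. Ogn, first described in bone, was at 21.0 and 9.57 CPM in tumour cells and at 163 and 44.7 CPM in fibroblasts. Omd, a SLRP known from bone and teeth, showed another pattern. Tumour cells had 7.18 CPM in SLC7A11-Ab and 5.01 CPM in Control, and fibroblasts 6.85 CPM from 13 UMIs and 2.48 CPM from 2 UMIs. Its log2 ratio of tumour cells to fibroblasts was 0.01 (-0.72 to 0.99) in SLC7A11-Ab and 0.69 (-0.85 to 4.06) in Control, so that no difference was detectable at this depth with the fixed gates. In the wider class Omd was higher than in fibroblasts in SLC7A11-Ab, at 14.6 CPM against 6.85 CPM with a log2 ratio of 1.04 (0.32 to 2.01), and the Control ratio was 1.09 (-0.45 to 4.46). The other 6 SLRPs with a ratio were all lower in tumour cells, by log2 ratios of -2.26 to -7.50 in SLC7A11-Ab and -1.93 to -8.15 in Control. In the wider class these 6 were lower as well, by -1.66 to -7.24 and by -1.70 to -7.92. The SLC7A11-Ab ratio was there -5.74 in place of -7.11 for Lum, -4.25 in place of -4.99 for Prelp, -2.47 in place of -3.56 for Aspn and -1.82 in place of -2.96 for Ogn. Fmod, which shares its collagen site with Lum, was almost absent, with 0 UMIs in tumour cells and 14 in fibroblasts of SLC7A11-Ab, and 4 and 0 UMIs in those of Control. Against T cells, the tumour level of Aspn, Lum, Omd and Ogn was higher beyond counting error in SLC7A11-Ab, but not in Control, where T cells gave at most 1 UMI per gene and 0 UMIs allow up to 12.6 CPM. In the wider class the same 4 were higher in SLC7A11-Ab, and in Control Aspn, by 2.09 (0.19 to 7.98), and Lum, by 2.20 (0.31 to 8.09), were higher too, each against 1 T cell UMI.

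Macrophages held several SLRPs at levels near those of tumour cells. In macrophages Dcn was at 565 CPM in SLC7A11-Ab and 436 CPM in Control, but 89.5% and 91.8% of those UMIs lay in the top 10% of cells. A Dcn UMI was found in 38.2% of SLC7A11-Ab macrophages and 24.5% of Control macrophages, whose median depths were 4957 and 3687 UMIs. Macrophage Bgn was 14.3 CPM in SLC7A11-Ab and 2.19 CPM in Control, with 57.9% of the SLC7A11-Ab UMIs in 5 cells. Aspn was at 14.0 CPM in SLC7A11-Ab tumour cells and 27.0 CPM in macrophages, and at 12.0 and 27.8 CPM in those of Control, log2 ratios of -0.96 (-1.17 to -0.73) and -1.22 (-1.49 to -0.92). Ogn was at 30.9 CPM in SLC7A11-Ab and 16.3 CPM in Control macrophages, with ratios of tumour cells to macrophages of -0.56 (-0.76 to -0.35) and -0.78 (-1.13 to -0.39). For Lum the ratio was -1.04 (-1.45 to -0.59) in SLC7A11-Ab, and in Control 0.08 (-0.31 to 0.51). Omd, at 0.10 and -0.42, and Prelp, at -0.46 and 0.51, did not differ between tumour cells and macrophages beyond counting error. In the wider tumour class Aspn was lower than in macrophages in Control alone (-0.68, -0.95 to -0.39), and in SLC7A11-Ab the sign turned for Ogn, to 0.58 (0.39 to 0.78), and Omd was higher, by 1.12 (0.73 to 1.57). Lum there had 0.33 (-0.04 to 0.75) in SLC7A11-Ab and 0.51 (0.13 to 0.94) in Control. The 23 SLC7A11-Ab and 26 Control endothelial cells had Dcn at 679.8 and 446 CPM, almost all of it in 5 cells (95.5% and 94.0%), and no UMI of Lum, Prelp, Omd or Fmod. In the SLC7A11-Ab endothelial cells 0 UMIs allow up to 13.2 CPM. With the gates without Plac8, the 27 SLC7A11-Ab endothelial cells did hold 11 Lum UMIs and 1 Prelp UMI.

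**Figure D2:**
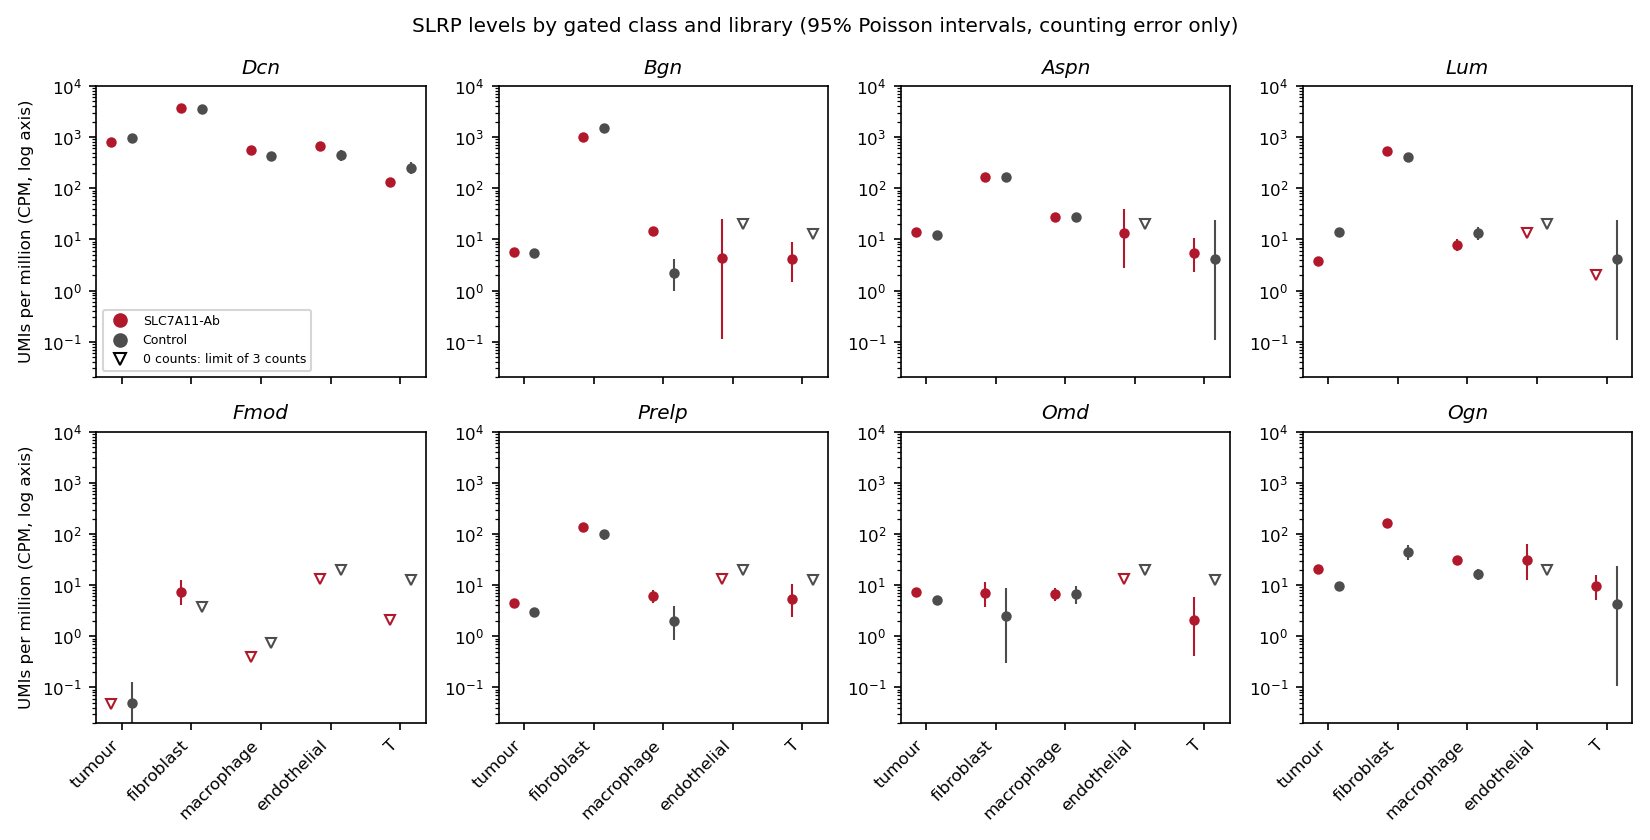
CPM of each SLRP (logarithmic axis) in tumour cells, fibroblasts, macrophages, endothelial cells and T cells of the SLC7A11-Ab and Control libraries, with 95% Poisson intervals and open triangles at the level of 3 counts where none was seen. Bgn and Prelp are at 5.67 and 4.38 CPM in SLC7A11-Ab tumour cells against 1028 and 139.7 CPM in fibroblasts, while Omd is at 7.18 CPM in tumour cells and 6.85 CPM in fibroblasts.

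Within the tumour cells, 6 other SLRPs were higher where Dcn was high. Cells with at least 1000 Dcn CPM (770 in SLC7A11-Ab and 1981 in Control) were set beside cells under 200 Dcn CPM (995 and 1471). Aspn reached 57.2 CPM in the Dcn-high cells and 2.54 CPM in the Dcn-low cells of SLC7A11-Ab, and 38.6 and 1.32 CPM in those of Control, log2 ratios of 4.48 (4.07 to 4.95) and 4.84 (4.29 to 5.52). Lum was higher by 3.09 (2.50 to 3.79) in SLC7A11-Ab and 4.08 (3.65 to 4.57) in Control. For Ogn the log2 ratio was 3.08 and 2.09, for Omd 3.01 and 2.10, and for Prelp 3.42 and 2.50. In the wider class the ratios were larger, at 5.42 in SLC7A11-Ab and 5.33 in Control for Aspn, 4.50 in both for Lum, 3.98 and 2.66 for Ogn, 3.62 and 2.47 for Omd, and 3.85 and 2.70 for Prelp. The Dcn-high SLC7A11-Ab cells had 57.2 CPM of Aspn, 11.7 of Lum, 13.5 of Prelp, 20.6 of Omd and 65.9 of Ogn, against 5.41, 0, 5.41, 2.03 and 9.47 CPM in T cells.

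Bgn had the lowest ratio of the 6 in SLC7A11-Ab, at 7.63 CPM in Dcn-high and 4.92 CPM in Dcn-low tumour cells, a log2 ratio of 0.63 (0.21 to 1.06). In Control its ratio of 2.01 (1.56 to 2.50) lay beside those of Omd and Ogn. Col1a1 was at 55.7 CPM in both sets of SLC7A11-Ab cells and at 52.5 and 33.6 CPM in Control, and in the wider class its ratio was 0.47 (0.37 to 0.58) and 0.73 (0.59 to 0.87). Other mesenchymal genes were also higher in Dcn-high cells. Col3a1, a fibrillar collagen gene of the fibroblast gate, was at 167 CPM in Dcn-high and 72.6 CPM in Dcn-low SLC7A11-Ab cells, and at 270.2 and 85.4 CPM in Control, log2 ratios of 1.20 (1.10 to 1.30) and 1.66 (1.58 to 1.74). Pdgfra, a growth factor receptor of fibroblasts, was at 10.7 and 3.67 CPM in SLC7A11-Ab and at 16.3 and 6.55 CPM in Control, log2 ratios of 1.53 (1.11 to 1.98) and 1.31 (1.02 to 1.63). In fibroblasts Col1a1 was at 10072 CPM in SLC7A11-Ab and 7372 CPM in Control, and Col3a1 at 12106 and 10982 CPM. The part of fibroblast RNA in the SLRP levels of Dcn-high cells was not tested. Cenpp, which overlaps Aspn on the other strand, was lower in Dcn-high cells, by log2 ratios of -0.31 (-0.52 to -0.09) and -0.27 (-0.44 to -0.11). Ecm2, the next gene to Aspn on chr13, gave 11 UMIs in Dcn-high and 11 in Dcn-low SLC7A11-Ab cells, and 6 and 7 in Control. Kera and Epyc, which follow Lum on chr10, had at most 2 UMIs in any of these sets.

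Levels were highest at the top of the Dcn range. In cells with at least 5000 Dcn CPM (129 in SLC7A11-Ab and 268 in Control), Aspn was at 262 CPM in SLC7A11-Ab and 229 CPM in Control, above the 165 and 164 CPM of fibroblasts. Ogn reached 225 and 99.7 CPM there, Omd 60.7 and 45.9 CPM, Prelp 59.0 and 26.7 CPM, and Lum 59.0 and 219 CPM. Bgn was at 10.3 and 25.7 CPM, Col3a1 at 474 and 719.6 CPM and Pdgfra at 24.8 and 35.0 CPM. In the 503 such SLC7A11-Ab cells of the wider class Lum was at 104 CPM, Omd at 98.1 CPM and Ogn at 342 CPM. After thinning to 5000 UMIs, an Aspn UMI was seen in 43.4% of these SLC7A11-Ab cells and 29.9% of the Control cells, against 1.61% and 0.680% of cells under 200 Dcn CPM. Without thinning the shares were 47.3% and 35.1%, against 3.42% and 1.56%. Krt18 was lower at the top of the Dcn range. With at least 5000 Dcn CPM it was at 8.55 CPM, from 10 UMIs, in SLC7A11-Ab and 30.6 CPM in Control. Between 1000 and 5000 Dcn CPM it was at 40.2 and 51.5 CPM, and under 200 at 32.0 and 36.7 CPM. Fibroblasts had Krt18 at 11.1 and 8.69 CPM. The part of cells other than tumour cells at the top of the Dcn range was not tested.

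**Figure D3:**
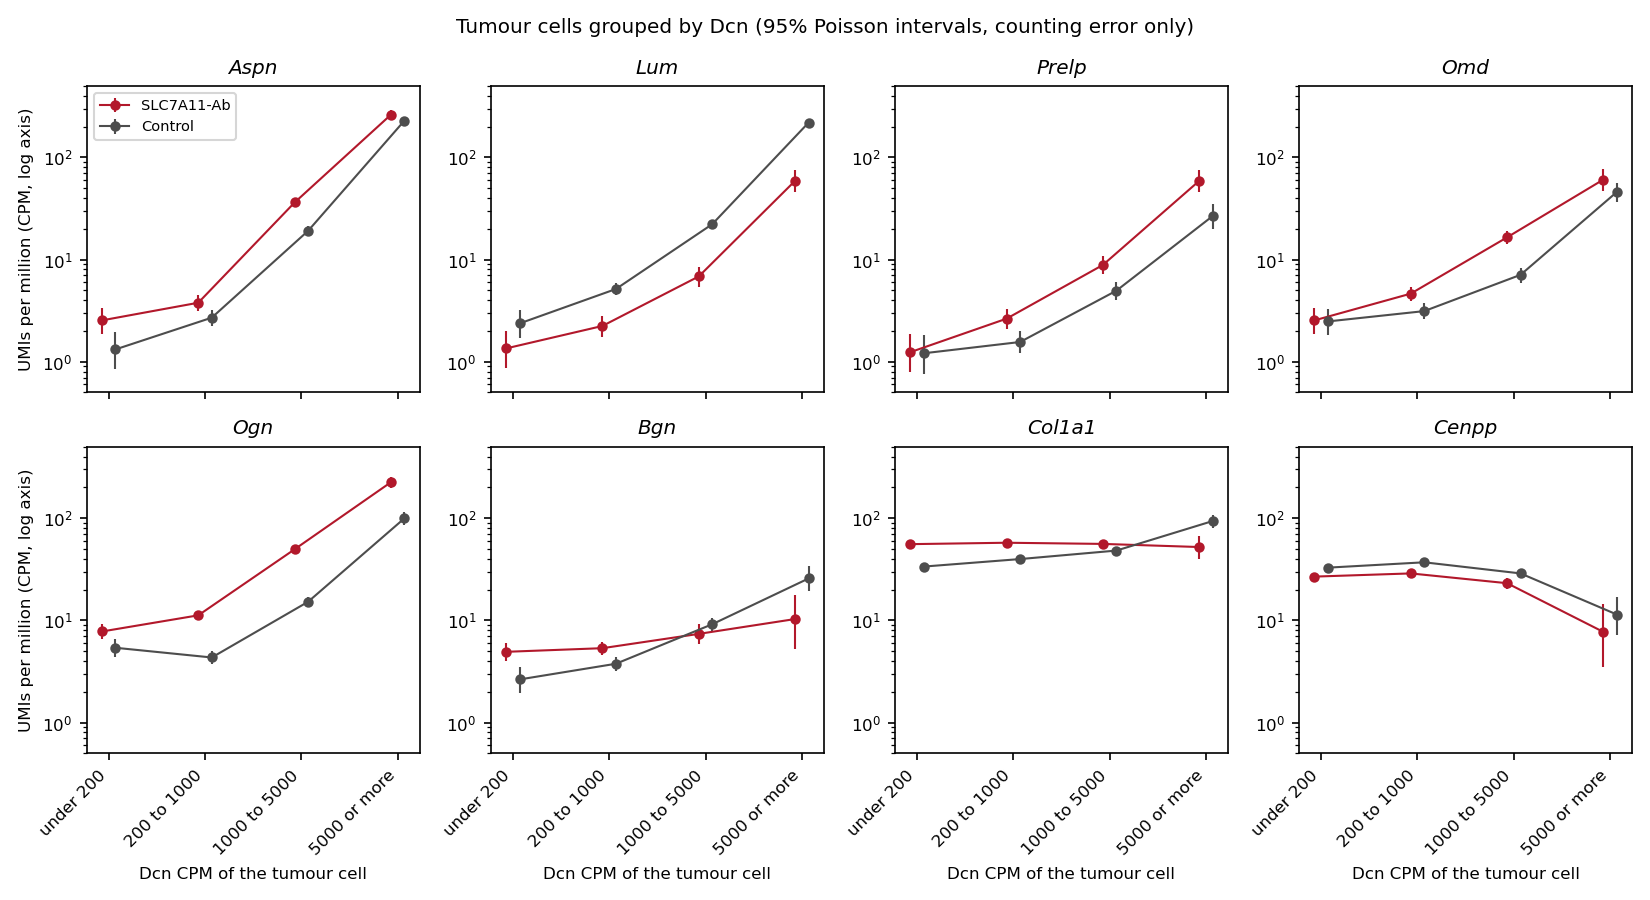
CPM (logarithmic axis, 95% Poisson intervals) of Aspn, Lum, Prelp, Omd, Ogn, Bgn, Col1a1 and Cenpp in tumour cells grouped by their own Dcn CPM, for the SLC7A11-Ab and Control libraries with the fixed gates. Aspn goes up to 262 CPM in SLC7A11-Ab and 229 CPM in Control at the top, where Col1a1 is at 52.2 and 93.8 CPM and Col3a1, not drawn, is at 474 and 719.6 CPM; Lum lies lower in SLC7A11-Ab and Ogn higher at each step.

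Members of the chr13 group were also seen together cell by cell. An Aspn UMI and an Omd UMI occurred in the same tumour cell 107 times in SLC7A11-Ab and 66 times in Control, 4.10 and 4.55 times the product of their separate shares. For Omd with Ogn the figures were 3.03 and 4.24, for Aspn with Ogn 3.32 and 5.64, and for Aspn with Prelp, which lies on chr1, 4.12 and 4.95. The 5 pairs of Bgn with another member gave 1.32 to 1.70 in SLC7A11-Ab and 1.70 to 2.57 in Control. The 10 pairs among Aspn, Lum, Prelp, Omd and Ogn gave 1.98 to 4.12 in SLC7A11-Ab and 1.82 to 5.64 in Control, so that these ranges overlap in Control. Deep cells hold more UMIs of every gene, and these ratios were not corrected for depth. At least 4 of the 8 SLRPs were seen in 5.40% of SLC7A11-Ab and 2.15% of Control tumour cells, and in 49.7% and 38.9% of fibroblasts.

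Over tumour cells the genes most like Dcn, by the lower of the 2 libraries' Pearson correlations on log2(CPM/100 + 1) over 7983 genes, were Cp (ceruloplasmin), Mmp3 (stromelysin-1), Rarres2 (chemerin), Fn1 (fibronectin) and Clu (clusterin). Their r was 0.52 for Cp, 0.48 for Mmp3, 0.49 for Rarres2, 0.45 for Fn1 and 0.37 for Clu in 3277 SLC7A11-Ab cells, and 0.50, 0.47, 0.40, 0.38 and 0.38 in 6512 Control cells. Among the SLRPs, Aspn (0.37 and 0.28) and Ogn (0.35 and 0.23) came nearest and Bgn (0.05 and 0.13) was far from it. The 5 genes nearest to Bgn had r of at most 0.14, which is too weak in counts this sparse to be read. The cells of a library share its depth spread and its free RNA.

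The second comparison set the SLC7A11-Ab library beside Control. Ogn was higher and Lum lower in tumour cells, and Dcn and Bgn differed less. Ogn stood at 21.0 CPM (19.9 to 22.2) in SLC7A11-Ab tumour cells and 9.57 CPM (8.91 to 10.3) in Control tumour cells, a log2 ratio of 1.13 (1.01 to 1.26), and in the wider class at 46.3 and 13.5 CPM, a log2 ratio of 1.78 (1.69 to 1.87). Lum stood at 3.85 CPM (3.38 to 4.36) in SLC7A11-Ab and 14.0 CPM (13.2 to 14.8) in Control, a log2 ratio of -1.86 (-2.07 to -1.66), and in the wider class at 9.97 and 18.8 CPM, -0.92 (-1.03 to -0.80). Dcn had -0.25 (-0.27 to -0.24), and its sign turned in the wider class, where 1201 CPM in SLC7A11-Ab and 1109 CPM in Control gave 0.11 (0.10 to 0.13). With the fixed gates the order of Dcn also changed with depth. Cells of 5000 to 10000 UMIs had 2518 CPM in SLC7A11-Ab and 1621 CPM in Control. Cells of 20000 UMIs or more had 601 and 666 CPM. Bgn had 0.08 (-0.12 to 0.29), and 0.11 in the wider class, but -0.36 with each cell thinned to 5000 UMIs. Over all tumour cells the Bgn ratio joins opposite signs at low and high Dcn levels, given below. Ptprc was at 4.78 CPM in SLC7A11-Ab and 1.30 CPM in Control tumour cells, and 12 fibroblast markers summed to 385 and 474 CPM there, with 4 higher, 8 lower and none at 0; their part in these differences was not tested.

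The remaining members moved less with the fixed gates. Aspn had a log2 ratio of 0.22 (0.09 to 0.35), Prelp of 0.58 (0.33 to 0.84) and Omd of 0.52 (0.32 to 0.72). In the wider class these were 0.78, 1.14 and 1.14. Within each depth range of the fixed gates all were higher in SLC7A11-Ab. Cells of 5000 to 10000 UMIs had Aspn at 98.8 CPM in SLC7A11-Ab and 31.8 CPM in Control, and Omd at 28.7 and 9.22 CPM. From 10000 to 20000 UMIs Aspn was at 10.3 and 5.84 CPM, Omd at 7.94 and 4.04 CPM and Prelp at 4.75 and 2.32 CPM. At 20000 or more they were at 6.46 and 5.35, 4.23 and 2.70, and 2.36 and 1.06 CPM. The part of depth in the pooled ratios was not tested. The sign of Aspn turned to -0.32 with a tumour limit of 2000 UMIs and to -0.14 without doublet removal, and that of Prelp to -0.32 where keratin UMIs were required. By a 2-fold limit, 1 of 7 SLRPs with at least 20 UMIs was higher in SLC7A11-Ab tumour cells (Ogn), where 11.3% of all 17673 genes were, and 1 was lower (Lum), where 4.29% were. Ogn no longer reached 2-fold with a tumour limit of 2000 UMIs (0.65), without doublet removal (0.87) or where keratin UMIs were required (0.86). In the wider class 3 were higher (Prelp, Omd and Ogn, background 11.7%) and none lower (background 4.07%). The median log2 ratio was 0.22 over the 7 SLRPs and -0.14 over all genes.

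With the fixed gates, Lum was lower and Ogn higher in SLC7A11-Ab tumour cells at each Dcn level examined. In tumour cells under 200 Dcn CPM the log2 ratio of SLC7A11-Ab to Control was -0.80 (-1.58 to -0.07) for Lum and 0.53 (0.15 to 0.91) for Ogn. Between 200 and 1000 Dcn CPM it was -1.19 for Lum and 1.37 for Ogn. Between 1000 and 5000 it was -1.69 and 1.71. At 5000 or more it was -1.88 (-2.28 to -1.52) and 1.17 (0.90 to 1.45). The Bgn ratio changed sign with the Dcn level. It was 0.89 (0.38 to 1.43) under 200 Dcn CPM and 0.51 (0.19 to 0.83) between 200 and 1000. Between 1000 and 5000 it was -0.31 (-0.71 to 0.07). At 5000 or more, with 12 SLC7A11-Ab UMIs, Bgn had -1.28 (-2.36 to -0.40). Lum and Dcn are neighbours on chr10, yet for every 1000 Dcn UMIs tumour cells had 4.85 Lum UMIs (4.26 to 5.50) in SLC7A11-Ab and 14.8 (13.9 to 15.7) in Control, and in the wider class 8.31 (7.78 to 8.86) and 17.0 (16.2 to 17.8).

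In fibroblasts Ogn was again higher in SLC7A11-Ab, and Bgn was lower. Ogn gave 310 UMIs, or 163 CPM (146 to 183), in 181 SLC7A11-Ab fibroblasts and 36 UMIs, or 44.7 CPM (31.3 to 61.9), in 113 Control fibroblasts. The log2 ratio was 1.85 (1.37 to 2.41), and 2.21 (1.58 to 2.98) without the 5 cells of each library with most Ogn. An Ogn UMI was present in 42.5% of SLC7A11-Ab and 20.4% of Control fibroblasts, with median depths of 7317 and 6950.0 UMIs, and in 13.6% and 3.09% after thinning to 1000 UMIs, against 0.212% and 0 of T cells. Bgn had a log2 ratio of -0.57 (-0.67 to -0.46), Lum of 0.39 (0.21 to 0.57), Prelp of 0.50 (0.14 to 0.89), Dcn of 0.07 (0.01 to 0.13) and Aspn of 0.01 (-0.29 to 0.31). Of these fibroblasts 126 in SLC7A11-Ab and 33 in Control also passed an immune gate. The immune gates included the Plac8-based one, and the fibroblasts had Plac8 at 1539 CPM in SLC7A11-Ab and 1031 CPM in Control. Without the fibroblasts that passed an immune gate, Dcn turned to -0.13, Bgn stood at -0.93 and Aspn turned to -0.37. Outside the immune gates without Plac8, Dcn had 0.18 and Bgn -0.45. Of the 6 SLRPs with at least 20 UMIs, 1 was at least 2-fold higher (Ogn, against 9.74% of 9539 genes) and none 2-fold lower (5.30%). Fmod gave 14 UMIs in SLC7A11-Ab fibroblasts, 85.7% of them in 5 cells, and 0 in Control fibroblasts, which against a floor of 3 counts is a log2 ratio of at least 0.99.

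**Figure D4:**
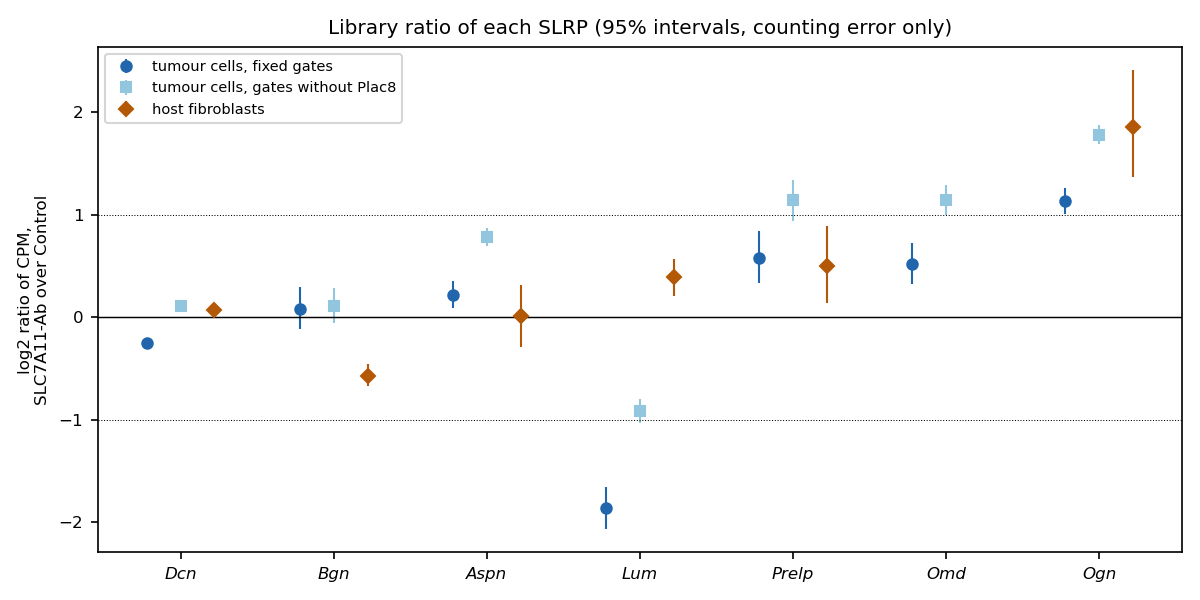
Log2 ratio of CPM, SLC7A11-Ab over Control, with 95% counting intervals, for each SLRP with at least 20 UMIs in tumour cells (fixed gates and gates without Plac8) and in host fibroblasts; dotted lines mark 2-fold. Ogn lies at 1.13, 1.78 and 1.85, and Lum at -1.86 and -0.92 in tumour cells but at 0.39 in fibroblasts.

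The fibroblasts of the libraries also differed in other genes. Of 12 fibroblast markers 5 were higher and 7 lower in SLC7A11-Ab, with summed levels of 11587 CPM in SLC7A11-Ab and 11964 CPM in Control, and none was at 0. Pi16 and C3, markers of resting adventitial fibroblasts, were at 412 and 677 CPM in SLC7A11-Ab and at 192 and 269 CPM in Control. Mfap5, also on the list, went the other way, at 1342 CPM in SLC7A11-Ab and 2312 CPM in Control. Thy1 was at 257 and 707 CPM. Of 5 muscle and mural markers 4 were lower in SLC7A11-Ab, where they summed to 626 CPM against 1285 CPM in Control, with Acta2 at 381 and 804 CPM and Myh11 at 0 and 2 UMIs. Ptprc gave 38 UMIs in SLC7A11-Ab fibroblasts and 6 UMIs in Control fibroblasts, a log2 ratio of 1.33. The part of the kinds of fibroblast caught in each library in the Ogn and Bgn differences was not tested.

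Genes of related pathways were taken as lists. Of 10 further SLRPs (such as Kera, Epyc and Podn), 4 had at least 20 UMIs in tumour cells, of which 1 was 2-fold higher (Podnl1, 6.96 CPM in SLC7A11-Ab and 2.49 CPM in Control, log2 ratio 1.48) and none lower. In fibroblasts 2 were measured. Podn (podocan) was higher, at 66.4 CPM in SLC7A11-Ab and 27.3 CPM in Control with a log2 ratio of 1.26 (0.62 to 2.01), and Tsku (tsukushi), outside the rule for named genes and chosen after its values were seen, was lower, at 8.44 and 18.6 CPM (-1.15, -2.25 to -0.02). Of 32 genes that build and sulfate the glycosaminoglycan chains, 25 were measured in tumour cells, 3 being 2-fold higher and 1 lower, with a median of -0.08. Dsel, a dermatan sulfate epimerase, was at 10.5 CPM in SLC7A11-Ab and 3.41 CPM in Control (log2 ratio 1.63), and Csgalnact1, which starts chondroitin chains, at 12.1 and 30.9 CPM (-1.35). In fibroblasts 23 of these were measured, none 2-fold higher and 2 lower, with a median of -0.34, and Csgalnact1 was again lower at 120.2 and 259.6 CPM (-1.11, -1.39 to -0.83).

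Of 17 SLRP partners and receptors, 15 were measured in tumour cells, 1 being 2-fold higher and 1 lower (P2rx7, an ATP-gated channel, 5.99 CPM in SLC7A11-Ab and 12.3 CPM in Control). Bmp1, the protease that trims the propeptides of biglycan and osteoglycin, had a log2 ratio of -0.99 (-1.11 to -0.87) in tumour cells and -0.74 (-0.98 to -0.49) in fibroblasts. Of 11 fibrillar collagen genes, 8 were measured in tumour cells with none past 2-fold, and 9 in fibroblasts with 1 lower, Col5a3, at 333 CPM in SLC7A11-Ab and 750.1 CPM in Control (-1.17). Col1a1 had log2 ratios of 0.44 in tumour cells and 0.45 in fibroblasts. Most fibrillar collagen genes went the other way in tumour cells, with 2 above 0, 6 below and a median of -0.18. Among them Col3a1 had -0.59 (-0.63 to -0.54). In fibroblasts 5 were above 0 and 4 below, with a median of 0.13. Of 24 other proteoglycans 19 were measured in tumour cells, 3 being 2-fold higher and 1 lower. Sdc1 (syndecan-1) was at 15.9 CPM in SLC7A11-Ab and 6.03 CPM in Control (1.40), Srgn (serglycin, of blood cells) at 13.7 and 5.50 CPM (1.32), and Gpc5 (a glypican) at 0.471 and 2.28 CPM (-2.26). In fibroblasts 15 were measured, 2 being 2-fold higher and none lower, with Gpc3, another glypican, at 143 and 42.2 CPM (1.75, 1.25 to 2.32). These shares are to be read against the 11.3% and 4.29% of all genes in tumour cells and the 9.74% and 5.30% in fibroblasts, and against medians of -0.14 and -0.17 over all genes.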

How the data were processed

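Single cells of CT26 tumours were measured with the 10x Genomics 3′ kit after collagenase and DNase digestion, per the labels' protocols, in 1 SLC7A11-Ab and 1 Control library. The authors deposited UMI counts per gene and barcode, whole numbers with no normalization. The submitters' processing notes name Cell Ranger 7.2.0, Seurat and mm10. How strand was used is not given in the sources used here.

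Barcodes were kept for analysis where they held 200 genes and 500 UMIs or more, and where mitochondrial genes gave less than 20% of the UMIs. Scrublet (scanpy 1.11.5) scores removed the top 0.8% of cells per 1000 cells of the library as doublets, 1164 (9.65%) in SLC7A11-Ab and 1537 (11.1%) in Control. Classes came from gates on marker genes, with no clustering. A T cell needed Cd3d, Cd3e and Cd3g together at 300 CPM and 2 UMIs, a macrophage C1q genes at 500 CPM and 3 UMIs, an endothelial cell 4 markers at 500 CPM and 3 UMIs. Fibroblasts were taken by collagen level even where they passed another gate. Counts were summed per class and divided by the class total (CPM); log2 ratios add a prior count of 0.5. Genes with at least 20 UMIs in both libraries together were counted as measured, and 2-fold was the limit for calling one higher or lower. A count of 0 was given a floor of 3 counts. Shares were also computed on cells thinned at random to 1000 or 5000 UMIs. With 1 library per group no test was possible and none was made. Calculations used Python 3.11.15, numpy 2.4.6, scipy 1.17.1 and pandas 2.3.3, and were tested on simulated data.

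The members and lists were chosen with earlier results of these data known. The rule for naming genes beyond the members took the 5 genes most like Dcn and Bgn, among genes detected in at least 10% of tumour cells of each library. It also took the list genes with the 2 highest and 2 lowest ratios among those with at least 100 UMIs. Only some of these list genes are printed, and the genes most like Bgn are not named. Alternatives covered doublets, filters, gates, scaling, thinning and the 5 highest cells.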

Additional observations from a re-analysis of the deposited data

Results flagged for a closer look

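Dcn and Lum differed between the libraries in opposite directions in tumour cells and in fibroblasts. The log2 ratio of SLC7A11-Ab to Control was -0.25 for Dcn in tumour cells and 0.07 in fibroblasts. For Lum it was -1.86 in tumour cells and 0.39 in fibroblasts. With 1 library per group the difference between the cell classes was not tested. The Dcn values are small, and each turned sign under another choice of cells. The tumour value turned to 0.11 in the wider tumour class. Within the fixed tumour class, cells of 5000 to 10000 UMIs had Dcn at 2518 CPM in SLC7A11-Ab and 1621 CPM in Control. From 10000 to 20000 UMIs it was at 782 and 755 CPM, and at 20000 or more at 601 and 666 CPM. How far depth bears on the tumour value was not tested. The fibroblast value turned to -0.13 outside the immune gates, which included the Plac8-based gate. It was above 0 in 10 of 11 settings. Lum kept its sign in tumour cells in all 12 settings tried, between -2.25 and -0.92, and in fibroblasts in all 11, between 0.37 and 0.84.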

How the results depend on the processing

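No paired analysis was possible because each group has 1 library. Of 162 alternative values of the main results 82 stayed close and 80 moved; of 53 for the other members 36 stayed close and 17 moved. Values below are log2 ratios, SLC7A11-Ab over Control (library ratio) or tumour cells over fibroblasts (class ratio, SLC7A11-Ab library before Control), unless called a share; the cause of each shift was not tested.

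Gates without Plac8, chosen after seeing the data, gave tumour library ratios of 0.11 for Dcn, -0.92 for Lum and 1.78 for Ogn, a Dcn share of 94.6% in SLC7A11-Ab, class ratios of -1.66 and -1.70 for Dcn and -7.24 and -7.92 for Bgn, and 3 SLRPs 2-fold higher and 0 lower. Thinning to 5000 UMIs gave -0.15 for Dcn, -0.36 for Bgn and 1.36 for Ogn, with Dcn shares of 76.2% and 82.3%. A tumour limit of 2000 UMIs gave -0.43 for Dcn, -0.12 for Bgn, -2.25 for Lum and 0.65 for Ogn, shares of 89.5% and 90.2%, class ratios of -2.15 and -1.65 for Dcn and -7.91 for Bgn in Control, and 0 SLRPs 2-fold higher. A limit of 10000 UMIs gave -0.13 for Dcn, 0.56 for Bgn and -1.48 for Lum, shares of 94.5% and 94.1%, and class ratios of -2.50 and -2.31 for Dcn and -8.69 for Bgn in Control. Requiring keratins gave -0.30 for Dcn, 0.61 for Bgn, -2.18 for Lum and 0.86 for Ogn, class ratios of -2.33 for Dcn and -7.71 for Bgn in SLC7A11-Ab and -8.89 for Bgn in Control, and 0 SLRPs 2-fold higher.

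Without doublet removal, tumour library ratios were -0.35 for Dcn and 0.87 for Ogn, and fibroblast ones 0.27 for Dcn, -0.33 for Bgn and 0.84 for Lum. The Dcn share was 93.5% in Control, the class ratios -2.20 and -1.58 for Dcn and -7.65 for Bgn in Control, and 0 SLRPs were 2-fold higher. Median-of-ratios scaling gave -0.11 for Dcn and 1.28 for Ogn in tumour cells, and 0.33 for Dcn, -0.31 for Bgn and 0.65 for Lum in fibroblasts. Means of CPM over cells gave -0.14 for Dcn and 1.47 for Ogn in tumour cells and 0.60 for Lum in fibroblasts. Totals without mitochondrial, ribosomal and haemoglobin genes gave -0.29 for Dcn in tumour cells.

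A fibroblast gate of 2000 CPM gave library ratios of 0.16 for Dcn and 0.62 for Lum, and class ratios of -2.36 for Dcn and -7.71 for Bgn in SLC7A11-Ab. Fibroblasts with a Y-linked UMI gave 0.59 for Lum, and a class ratio of -1.85 for Dcn in Control. Fibroblasts outside the immune gates gave -0.13 for Dcn, -0.93 for Bgn and 0.79 for Lum, and class ratios of -1.87 and -1.74 for Dcn and -7.04 for Bgn in SLC7A11-Ab. Outside the immune gates without Plac8, also chosen after seeing the data, they gave 0.18 for Dcn and -0.45 for Bgn, and class ratios of -1.79 and -1.73 for Dcn and -7.93 for Bgn in Control. Leaving out the 5 highest cells, likewise chosen later, gave 0.30 for Bgn and -2.13 for Lum in tumour cells and 0.20 for Dcn in fibroblasts.

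Depth limits the T cell and endothelial levels, which rest on few UMIs outside Dcn, and the 113 Control fibroblasts limit Omd and Fmod.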
